A study of Canis lupus familiaris with 6 samples.

Results

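SYT13 and other synaptotagmins were followed in RasV12-expressing canine kidney epithelial cells that had been grown either by themselves or among normal cells. The members were SYT1, SYT2, SYT4, SYT5, SYT7, SYT9, SYT11, SYT12, SYT13 and SYT17, which are 10 genes out of 34378 different names on the array. They were selected on measured values, since SYT13 had read higher in mixed culture on these same arrays and the other family members were added by name, so the difference between mixed and single culture is described for them and not tested. Taking every non-control probe whose gene name column carried a member's symbol gave 11 probes of 7 genes. Another 4 probes carried a member's name only in their description line. These were found after the files had been opened, and they supplied SYT7 and SYT17, which would otherwise have had no probe, and second probes for SYT5 and SYT11. No probe was found for SYT2 in either way.

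The arrays were made to ask whether changes seen in transformed cells with active Wnt signalling, when they grow among their neighbours, also occur in cells transformed by RasV12 alone. The experiment used MDCK cells, an established dog kidney epithelial line, and MDCK-pTR GFP-RasV12 cells, a derivative in which tetracycline switches on GFP-tagged RasV12, an oncogenic form of Ras. In the alone group (n = 3) MDCK-pTR GFP-RasV12 cells were the only cells in the dish, and in the mixed group (n = 3) they shared it with MDCK cells. All 6 samples received tetracycline for 24 h, and GFP-positive cells were then collected by flow cytometry, so RasV12 was induced in the controls too and every array holds RNA of the sorted RasV12 cells. The labels give 10 MDCK cells per RasV12 cell for mixed replicates 1 and 3 and 100 for mixed replicate 2, whereas the methods give 10 for all of them. Where the labels describe RNA extraction they speak of cells that also carry the mCherry-β-catenin Δ131 mutant, which the titles and the methods of this experiment do not. Whether the replicates came from separate cultures is not given in the sources used here, so the spread between arrays may be technical.

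RNA of each sample was labelled in a single colour on an array of its own. Values are background-subtracted processed signals as the scanner software wrote them, or log2 of that signal minus the 75th percentile of its array, which lay between 592 and 700 signal units. The software marked 60.8% to 66.4% of the 43603 probes as well above background on an array, and the dimmest signal so marked was between 9.15 and 14.6. A probe entered the fit when all arrays of the alone group, or all of the mixed group, were marked so for it, which left 26534 probes. The alone arrays shared 1 slide and the mixed arrays another, so that slide and culture cannot be told apart in any value below. With 3 arrays in each group, their number limits the precision.

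Synaptotagmins are membrane proteins of secretory vesicles and other organelles, with tandem C2 domains that face the cytosol. In the classical members these domains bind calcium and phospholipid and act with SNARE proteins to drive vesicle fusion, best known from transmitter release in neurons and hormone release in endocrine cells. SYT1, SYT2 and SYT9 are fast calcium sensors, SYT5 and SYT7 also bind calcium, and SYT4, SYT11, SYT12 and SYT13 lack residues needed for calcium binding. SYT17, also called B/K protein, was named for its presence in brain and kidney.

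The probes on which the results turn are shown as stretches of 30 bases out of their 60, written 5′ to 3′ with any AATAAA, the letters of the common polyadenylation signal, in capitals. They are given so that the 3 SYT13 probes, and the probes of the members that were clearly measured, can be located and told apart.
SYT13 probe 1: gacaaaacgggccaagcacaagatcaaccc
SYT13 probe 2: aggccagatgcagggaaagtttaatgtggg
SYT13 probe 3: ctttcagtggtaAATAAAtaatttcgaact
SYT9 probe 1: aacattgaccaaatccacttgtccatagcc
SYT9 probe 2: gcacctctgcctctgttctcttgcattctg
SYT11 probe 2: acacaagtgcaaAATAAAgactgactcaca
SYT17 probe 1: tatcattcccacagcctattgtctggcata

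On canFam3, the build in the file headers, SYT13 probe 1 lies on the plus strand at chr18:44102133-44102192, probe 2 at chr18:44102675-44102734 and probe 3 at chr18:44105681-44105740. The start of probe 2 is 542 bases beyond that of probe 1, and the start of probe 3 another 3006 bases on. All 3 were assigned to the same Ensembl transcript. The files do not say which part of the gene a probe covers. Probes 1 and 2 could each be read through without a TAA, TAG or TGA in 2 of the 3 forward frames and probe 3 in 0 of them, while 84.5% of all probes had at least 1 such frame. AATAAA was present in SYT13 probe 3 and in SYT11 probe 2, in the orientation of the probe, as it was in 8.67% of all 43603 probes, and in either orientation in 11.4%. The longest run of bases shared by any pair of member probes was 8, so no member probe repeats another's sequence.

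SYT13 was the member with the largest difference, and each of its 3 probes read higher on every mixed array than on every alone array. At probe 3 the processed signal of the alone arrays was 97.0, 108 and 104, in the order of their replicate numbers, and that of the mixed arrays was 673, 819 and 875. The 3 alone arrays lay close together, with an SD of 0.04 on the log2 scale, and the mixed arrays spread more, with an SD of 0.24. The mixed minus alone difference at this probe was 3.0 ± 0.12 (log2, SE, n = 3 and 3), which is 7.99-fold.

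At probe 2 the alone signals were 215, 152 and 172 and the mixed signals 737, 643 and 739. Here it was the alone group that spread more, by an SD of 0.34 against 0.17 in the mixed group, with replicate 1 the highest alone array. The difference was 2.05 ± 0.18 on the log2 scale, or 4.15-fold. At probe 1 the alone signals were 13.9, 14.6 and 10.8 and the mixed signals 51.0, 40.4 and 49.2. This probe was the dimmest of the 3, close to the dimmest signals marked as well above background, although it was itself marked so on all 6 arrays. Its difference was 1.91 ± 0.16, or 3.76-fold.

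**Figure D1:**
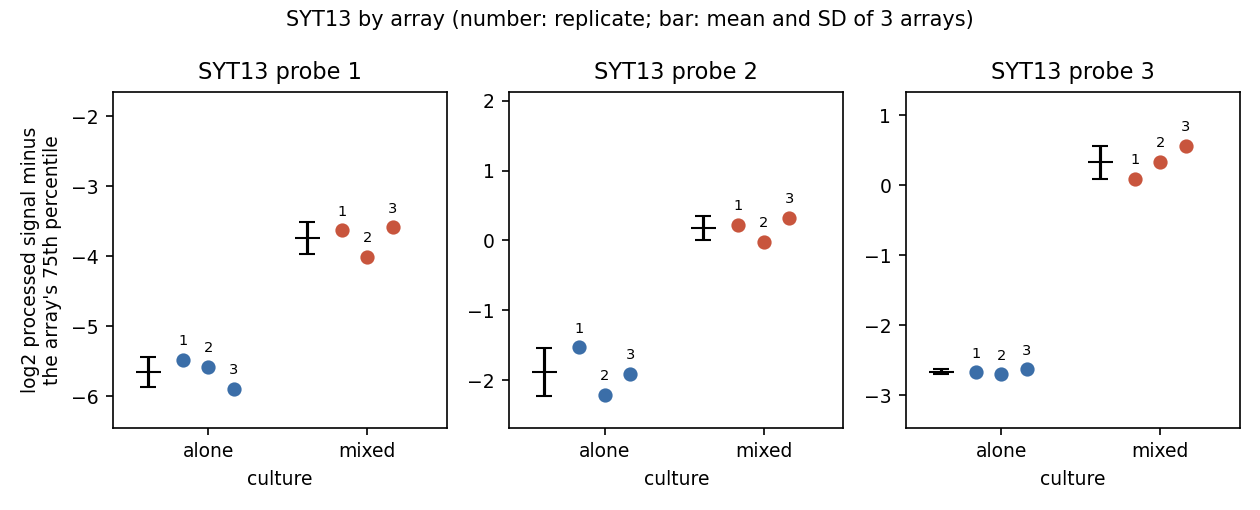
Log2 processed signal minus the 75th percentile of the array for the 3 SYT13 probes, 1 panel each, with 1 point per array numbered by replicate and, to the left of the points, the mean and SD of 3 arrays. The panels span the same number of log2 units but differ in their level, which is not comparable between probes. No alone point reaches a mixed point in any panel, and the gap is widest at probe 3, where the difference was 3.0.

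The size of the SYT13 difference depended on the mixed array and on the probe. Against the mean of the alone arrays, mixed replicates 1, 2 and 3 stood 6.77-fold, 8.01-fold and 9.40-fold higher at probe 3. At probe 2 the same arrays stood 4.29-fold, 3.64-fold and 4.59-fold higher, and at probe 1 they stood 4.06-fold, 3.13-fold and 4.18-fold higher. Mixed replicate 2, the sample labelled with 100 MDCK cells per RasV12 cell, was thus the lowest mixed array at probes 1 and 2 and lay between the others at probe 3. Without it the differences at probes 1, 2 and 3 were 2.04, 2.15 and 3.0.

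The 3 probes did not change equally. The log2 difference at probe 3 exceeded that at probe 1 by 1.09 and that at probe 2 by 0.94, whereas probes 1 and 2 differed from each other by 0.14. The log2 ratio of probe 3 to probe 2 within an array, which has no meaning as a level, ran from -1.15 to -0.50 on the alone arrays and from -0.13 to 0.35 on the mixed arrays. The corresponding ratio of probe 2 to probe 1 ran from 3.38 to 3.99 and from 3.85 to 3.99, and these ranges overlap. Probe 3 had the largest difference of the 3 under each of the alternative processings, but the value at the dim probe 1 fell to 0.66 ± 0.08 when background was corrected with normexp, a method that here adds an offset of 50 to every corrected signal. Under that correction probes 2 and 3 gave 1.72 ± 0.14 and 2.43 ± 0.11.

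Across the whole fit, 11.2% of probes were called at an adjusted p under 0.05 by limma with Benjamini-Hochberg adjustment, with 5.50% higher and 5.72% lower in mixed culture. Of the 11 probes found by gene name, 4 entered the fit, namely the 3 of SYT13 and 1 of SYT9. Of the 4 probes named in their description, 3 entered the fit, those of SYT5, SYT11 and SYT17. The members were picked with this contrast known, so no calls are given for their probes. All 3 SYT13 probes were well above background on all 6 arrays, so none of them entered through the mixed group alone. By size of difference they ranked 18, 43 and 58 from the top of the 26534 probes, in the order of probes 3, 2 and 1. Mixed and alone arrays failed to overlap at 37.2% of all probes fitted, so a lack of overlap by itself is common in these data.

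The members were not measured alike, and SYT4 and SYT12, with 1 of the SYT1 probes, were not well above background on any array. SYT1, the main calcium sensor of synaptic vesicles, was not well above background on any array at 1 of its probes, where signals ran from 3.59 to 10.7 in the alone and from 4.29 to 7.78 in the mixed group. Its other probe was well above background on alone replicate 3 only, at 12.5. SYT4, a calcium-insensitive member of neurons and endocrine cells, stayed between 1.96 and 3.15 over the 6 arrays and was not well above background on any of them. The same was true of SYT12, at 5.03 to 10.0 on the alone and 6.43 to 8.06 on the mixed arrays. No fold is given for these genes, which were dim in both groups.

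**Figure D2:**
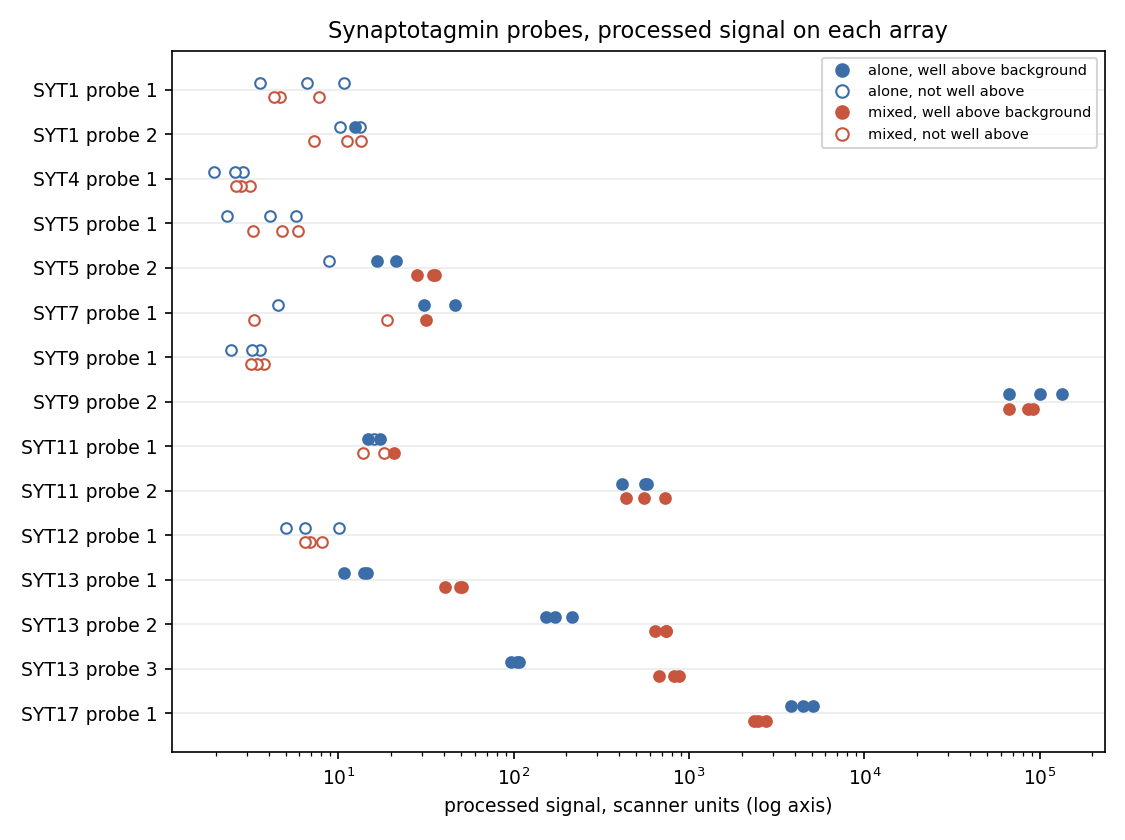
Processed signal of all 15 synaptotagmin probes on each of the 6 arrays, on a log axis, with filled points well above background and open points not. SYT9 probe 2, SYT11 probe 2, SYT17 and the 3 SYT13 probes are filled throughout, and SYT1 probe 1, SYT4, SYT5 probe 1, SYT9 probe 1 and SYT12 are open throughout. Positions along the axis may be compared between arrays of a probe but not between probes.

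SYT9, a fast calcium sensor of the same group as SYT1, read well above background at 1 of its probes and not at the other. Probe 2, at chr21:31122214-31122273, read 66999, 134664 and 100134 on the alone arrays and 66501, 91578 and 85628 on the mixed arrays. The groups overlap, with the lowest array of each almost equal and alone replicate 2 the highest of the 6. The difference was -0.20 ± 0.23 on the log2 scale. Each mixed array was below the alone array of the same replicate number, and with the replicate number as a block the SE was 0.11. The difference ran from -0.42 without alone replicate 1 to -0.01 without alone replicate 2. Probe 1 of the same gene spans chr21:31069412-31071528, which is 2117 bases for a probe of 60 and so crosses at least 1 intron, and its start is 52802 bases before that of probe 2. It was not well above background on any array, at 2.46 to 3.78 over all 6. Both probes were assigned to the same Ensembl transcript, and whether they detect the same RNA was not tested.

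SYT11, a calcium-insensitive member that is also found outside neurons, likewise gave unlike readings at its 2 probes. Probe 2, on the minus strand at chr7:41910105-41910164, read 417, 574 and 563 alone and 435, 731 and 555 in mixed culture. The groups overlap, and the difference was 0.20 ± 0.19, with an SE of 0.11 under the replicate block. Without mixed replicate 2, the highest array, it was 0.04. Probe 1, with a start 11908 bases away, was near the limit of detection, well above background on 2 of the alone arrays and 1 of the mixed arrays, with signals between 13.9 and 20.7. It did not enter the fit.

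SYT17 was the fitted member that read lower in mixed culture without overlap of the groups. Its single probe, at chr6:26076084-26076143 and named only in its description, gave 3825, 5084 and 4471 on the alone arrays and 2751, 2466 and 2357 on the mixed arrays. Every mixed array lay below every alone array, and the SD was 0.12 in the alone and 0.10 in the mixed group. The difference was -0.75 ± 0.09 on the log2 scale, a mixed level of 0.596 times the alone level. SYT17 and SYT13 thus stood on opposite sides of 0 by more than the spread of their arrays. With the sorted cells pooled in each array, fewer cells that express a gene and less of its RNA in each cell cannot be told apart.

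SYT5 and SYT7, which both bind calcium, were measured at the edge of detection. SYT5 probe 2 read 21.4, 8.88 and 16.5 alone and 28.1, 35.4 and 34.9 in mixed culture. Alone replicate 2 was not well above background, so the probe entered the fit through the mixed group, and every mixed array was above every alone array. Its difference of 1.22 ± 0.35 dropped to 0.81 without alone replicate 2 and to 0.30 with normexp. The other SYT5 probe, with a start 1280 bases before, was not well above background on any array, at 2.31 to 5.85, so the reading for the gene comes from a single dim probe. SYT7, which serves in lysosome exocytosis among other tasks, read 46.1, 4.55 and 30.9 alone and 19.0, 31.6 and 3.32 in mixed culture. Its arrays scattered within each group by more than any separation between the groups, and it was well above background on 2 alone arrays and 1 mixed array, so it was not fitted.

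**Figure D3:**
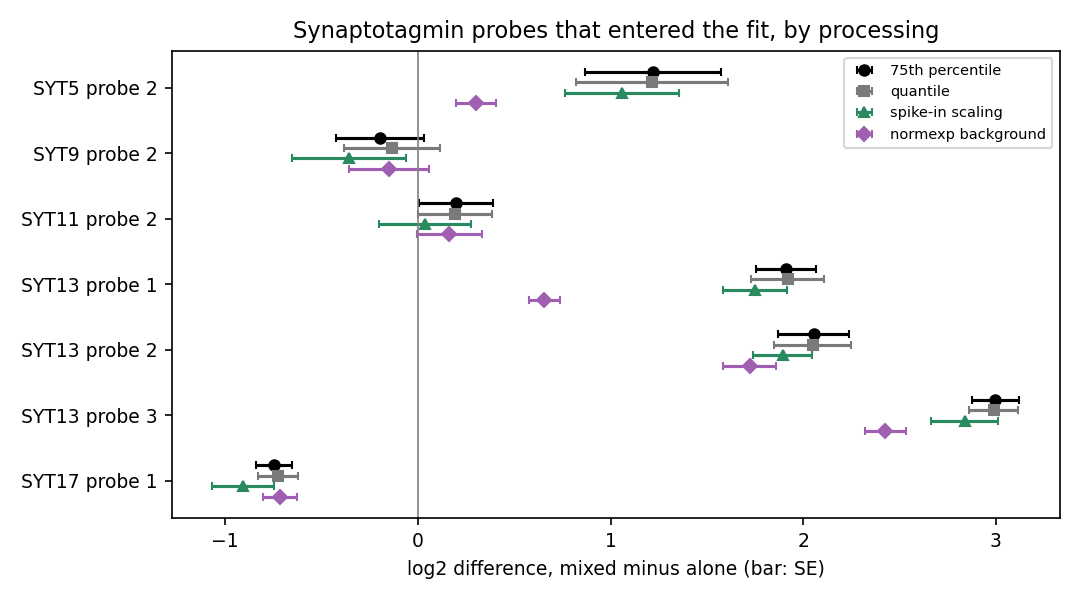
Mixed minus alone log2 difference with its SE for the 7 synaptotagmin probes that entered the fit, under 75th percentile scaling, quantile normalization, scaling to the spike-in controls and normexp background correction. The SYT13 probes stay above 0 and SYT17 below 0 under all 4, while the dim SYT13 probe 1 and SYT5 probe 2 drop from 1.91 to 0.66 and from 1.22 to 0.30 under normexp.

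Other proteins with C2 domains are related to the synaptotagmins by structure. Of 23 names listed, 16 were on the array, 9 had a probe in the fit and 3 of these were called, 1 higher and 2 lower. By probe this was 28.6% of the 14 fitted, beside 11.2% of all probes. Both counts include DOC2B, which entered the fit only through the alone group, where it read higher. When a probe had to be well above background on all 6 arrays, 2 genes were called, ESYT2 and SYTL4. SYTL4, also known as granuphilin, a Rab effector on secretory granules, rose at both of its probes, by 0.41 ± 0.10 (adjusted p = 0.0477, limma) and by 0.52 ± 0.09 (adjusted p = 0.0232, limma). With the replicate number as a block the adjusted p at the first of these probes was 0.0781, within a range of 0.0176 to 0.201 over the alternatives. ESYT2, which tethers the endoplasmic reticulum to the plasma membrane, fell by 0.51 at 1 of its 3 probes (adjusted p = 0.0224, limma), while the others gave -0.11 and -0.03. DOC2B, a soluble calcium sensor of exocytosis, was well above background on all 3 alone arrays at 17.5, 29.5 and 26.5 and on none of the mixed arrays at 12.6, 8.31 and 11.6. The fitted difference of DOC2B was -1.10 ± 0.23 (adjusted p = 0.0334, limma), and under normexp it was -0.23 (adjusted p = 0.111, limma). Counted against the lowest signals well above background on the mixed arrays, the alone arrays were 1.76-fold higher. Some signals not marked as well above background exceeded those lowest signals, so 1.76 is not a strict lower limit. With the replicate block the adjusted p of DOC2B was 0.0541 (0.015 to 0.121 over the alternatives). The close relatives SYT10 and SYT14 were not well above background on any array, and SYT8 gave 0.20 ± 0.11, which did not pass. The median difference over the 9 genes, each at its brightest probe, was 0.04, beside -0.0037 over all probes fitted. SYTL2 was fitted with alone replicate 3 left out, since that spot carried an outlier flag, and did not pass. Without any 1 of alone replicate 2, alone replicate 3, mixed replicate 2 or mixed replicate 3, the number of genes called on this list by limma was 0, with 3 genes at an unadjusted p under 0.05 each time. Without alone replicate 1 it was 4, and without mixed replicate 1 it was 2, where DOC2B (adjusted p = 0.0567, limma) and the first SYTL4 probe (adjusted p = 0.0582, limma) did not pass.

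Among the proteins with which synaptotagmins act, the number called depended on the arrays kept. Of 41 SNARE proteins, SNARE partners and priming factors listed, 34 were on the array, 29 were fitted and 3 were called, 1 higher and 2 lower. That is 5.88% of the 51 probes fitted, beside 11.2% of all probes. In the same fit of all 6 arrays, 11 genes of the list had an unadjusted p under 0.05 (limma). STX19, an epithelial syntaxin without a transmembrane segment, read 183, 172 and 164 alone and 356, 361 and 381 in mixed culture. The groups were well apart, and STX19 rose by 1.15 ± 0.10, or 2.22-fold (adjusted p = 0.0103, limma). STX4, a syntaxin of the plasma membrane, fell by 0.31 (SE 0.07, adjusted p = 0.0433, limma). With the replicate block the adjusted p of STX4 was 0.0582 (0.0198 to 0.158 over the alternatives). The median over the 29 genes, each at its brightest probe, was 0.0012. As with the C2-domain list, 0 genes were called by limma without alone replicate 2, alone replicate 3, mixed replicate 2 or mixed replicate 3 (8 to 11 genes at an unadjusted p under 0.05), and 9 without alone replicate 1, of which 8 were lower. Without mixed replicate 1 STX4 did not pass (adjusted p = 0.0624, limma).

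**Figure D4:**
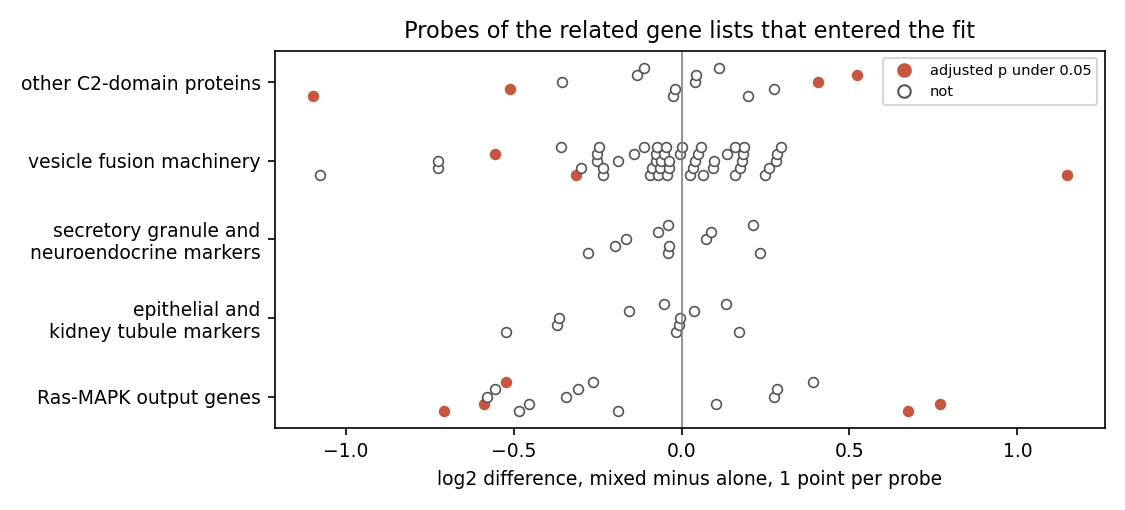
Mixed minus alone log2 difference of each fitted probe of the 5 related gene lists, with filled points at an adjusted p under 0.05. STX19 at 1.15 is the highest point. DOC2B is drawn at its fitted value although no mixed array was well above background for it, and the lists of granule and epithelial markers hold no filled point.

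The cells were checked for markers of the cells in which synaptotagmins are best known. Of 16 markers of secretory granules and neuroendocrine cells, 14 were on the array and 6 were fitted, and 7, among them the defining genes CHGB, SYP and NEUROD1, were not well above background on any array. None of the 6 passed with limma, 1 gene, ENO2, had an unadjusted p under 0.05, and the test of the methods, adjusted, called 0 as well. Among the alternatives, limma called 1 granule gene lower under normexp, 1 lower under quantile normalization and 2 lower without alone replicate 1. The sum of the 6 genes, each at its brightest probe and in multiples of the 75th percentile of the array, ran from 10.09 to 12.4 on the alone and from 10.3 to 11.2 on the mixed arrays. Most of that sum came from PAM, whose brightest probe had a mean of 3.18 alone and 3.14 mixed (log2 above the 75th percentile). All 7 epithelial and kidney tubule markers on the array, including CDH1, EPCAM, KRT18, CDH16 and PAX8, were fitted and 0 were called by limma or by the test of the methods, with CDH1 alone at an unadjusted p under 0.05. The CDH1 probes gave -0.36, -0.37 and -0.16. CDH16 and PAX8 each had another probe that did not enter the fit. It was well above background on 0 arrays for CDH16 and on 1 array for PAX8. On this list limma called 1 gene lower under normexp, 1 lower without mixed replicate 1 and 1 higher without alone replicate 1. The sum of the 7 epithelial and kidney tubule markers ran from 696 to 855 alone and from 736 to 859 in mixed culture, and most of it came from KRT18 and KRT19.

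Output genes of the Ras-MAPK pathway were listed as a check for normal MDCK cells in the sorted material. Of 11 fitted, 4 were called, or by probe 29.4% of the 17 fitted beside 11.2% of all probes. They were EGR1, an immediate early transcription factor, higher by 0.77 and 0.67 at its probes, and CCND1, FOSL1 and EPHA2 lower. CCND1, which encodes cyclin D1, fell by 0.59, FOSL1, a subunit of the transcription factor AP-1, by 0.52, and EPHA2, a receptor tyrosine kinase, by 0.71 (limma, adjusted p between 0.0157 and 0.0366 for the 5 probes). CCND1 had an adjusted p of 0.0633 with the replicate block (0.00782 to 0.132 over the alternatives) and of 0.0553 without mixed replicate 1. The summed level of the list was 128 to 131 on the alone and 108 to 124 on the mixed arrays. Most of that sum came from DUSP6, a MAPK phosphatase, whose brightest probe had a mean of 6.49 alone and 6.30 mixed (log2 above the 75th percentile) and was not called (adjusted p = 0.205, limma). The part of these changes in the synaptotagmin values was not tested. The number called by limma was 0 without alone replicate 2, alone replicate 3, mixed replicate 2 or mixed replicate 3, with 6 or 7 genes at an unadjusted p under 0.05.

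The genes most like SYT13 in their course over the 6 arrays were taken as those with the smallest root mean square distance from probe 2, the brightest of its probes on the average of the 6 arrays, among 16716 probes with a symbol that were well above background throughout. They were TBC1D30, a TBC-domain protein that acts on Rab GTPases, at a distance of 0.14 log2 units, RSAD2, the interferon-induced protein viperin, at 0.22, ITGB8, the integrin β8 chain, at 0.27, RNF213, a large ubiquitin ligase, at 0.27, and RIPPLY1, a transcriptional repressor, at 0.28. The distance describes these 6 arrays and carries no test, and distances from probe 3, the brighter on mixed replicates 2 and 3, were not computed. The mixed minus alone differences of these genes were between 1.60 and 2.47.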

How the data were processed

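Total RNA of GFP-positive sorted cells, 3 alone and 3 mixed samples, was hybridised to Agilent canine arrays in 1 colour. Per the file headers, the intensity values were extracted with Agilent Feature Extraction 10.10.1.1, which subtracted background with spatial detrending, and the probes were placed on canFam3. The deposited log2 table matched the log2 processed signal minus each array's 75th percentile for 26529 probes to within 0.0773, with column medians between -0.833 and -0.78, and served as an alternative. Raw means and local backgrounds were used only for normexp.

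The members and gene lists were chosen with earlier results of these data known. The mixed minus alone difference was fitted with limma 3.58.1 in R 4.3.3, with Benjamini-Hochberg adjustment over 26534 probes and a threshold of 0.05, two-sided. Control spots and spots flagged as outliers were left out, and spots of a probe were averaged. Summaries were made with Python 3.11.15 and pandas 2.3.3. Member differences carry an SE and no test. Named were all member probes, every called gene of the C2-domain and vesicle fusion lists (1 of the latter is counted but not reported here), called genes of the marker lists, and the 5 genes closest to SYT13. The Ras-MAPK, granule and epithelial lists were marker checks. Both groups share replicate numbers, and deviations of arrays with the same number correlated at 0.35, 0.16 and 0.30, over 0.1 in each pair. By that threshold the numbers were taken as pairs from the data. Arrays with unlike numbers correlated at -0.33 to 0.24. The 0.24, of alone replicate 2 with mixed replicate 3, exceeded the 0.16 of the 2 arrays numbered 2. These values therefore do not establish that the replicate numbers mark pairs. The number is also the position on the slide. Alternatives were quantile, spike-in and normexp processing, other filters, the deposited table, the unpaired test of the methods, a replicate block and leaving out each array. The fit was tested on simulated data. SYT2 was not analysed here.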

Additional observations from a re-analysis of the deposited data

How the results depend on the processing

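The SYT13 differences kept their direction under all alternatives and moved most under normexp, where probes 1, 2 and 3 gave 0.66, 1.72 and 2.43. Under spike-in scaling they were 1.75, 1.89 and 2.84. With single arrays left out they ran from 1.79 to 2.04, from 1.89 to 2.23 and from 2.88 to 3.12. SYT17 was -0.91 under spike-in scaling, which lowered the median of all probes by 0.16 (log2, shift -0.16). The count of probes called was the least stable value. It was 2978 (1459 higher, 1519 lower), 12 without a filter on dim probes (6 higher, 6 lower), 995 under spike-in scaling (301 higher, 694 lower) and 828 by the unpaired test of the methods after adjustment (325 higher, 503 lower), which gave 7313 unadjusted where limma gave 8342. With single arrays left out it ran from 7 (without alone replicate 3) to 7335 (without alone replicate 1), and was 24 when alone replicate 2 was left out, 9 for mixed replicate 2, 12 for mixed replicate 3 and 2009 for mixed replicate 1. The number of C2-domain genes called, 3, was 0 without a filter, 1 under spike-in scaling, 0 by the test of the methods and 0 to 4 with single arrays left out. That of vesicle fusion genes, 3, was 0 without a filter, 5 under normexp, 1 under spike-in scaling and 0 to 9 with single arrays left out. The cause of these changes was not tested. With the replicate number as a block for the pairing, 2825 probes were called, 2091 of them among the 2978, and 2 genes on each of the lists. The block ended the calls of SYTL4 at 1 probe, DOC2B, STX4 and CCND1 and of no other gene named in the text. A block for slide could not be estimated, as no slide carried both groups. Dim probes limit SYT1, SYT4, SYT7 and SYT12, for which signal over background allows no comparison of the groups.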

Other observations

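The genes next to SYT13 were picked by their order in the RefSeq annotation of another dog assembly, UU_Cfam_GSD_1.0, not by their values, and after the SYT13 values were known. Of the 3 protein-coding genes on either side, CHST1, adjacent on one side, gave a mixed minus alone difference of -0.21 ± 0.17 on the log2 scale (adjusted p = 0.426, limma), and PRDM11, adjacent on the other, did not enter the fit, with 3 arrays well above background at its brighter probe. SLC35C1, a GDP-fucose transporter of the Golgi, rose by 1.18 ± 0.18 at 1 probe (adjusted p = 0.019, limma) and gave 0.35 ± 0.11 at its other probe (adjusted p = 0.0828, limma), so its probes were unequal as those of SYT13 were. The call was lost without alone replicate 2, alone replicate 3, mixed replicate 2 or mixed replicate 3, with adjusted p of 0.0748 to 0.086 (0.00624 to 0.086 over all alternatives). CRY2, TP53I11 and TSPAN18 gave values between 0.11 and 0.42 at the probes fitted, none of which passed.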
